A study of Mus musculus with 7 samples.

Results

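Perineuronal nets are lattices of extracellular matrix that wrap the cell body and proximal dendrites of certain neurons, in the cortex above all the fast-spiking, parvalbumin-expressing (Pv) interneurons. The scaffold is hyaluronan, a long sugar chain spun out by membrane synthases. Chondroitin sulfate proteoglycans of the lectican family bind it, link proteins clamp that bond, and tenascin-R ties the far ends of the lecticans together. Nets condense over the first postnatal weeks, late in the maturation of cortical circuits. The 9 genes examined here, of 47729 in the count table, encode these parts: the lecticans aggrecan (*Acan*), brevican (*Bcan*), neurocan (*Ncan*) and versican (*Vcan*), the link proteins *Hapln1* and *Hapln4*, tenascin-R (*Tnr*), and the hyaluronan synthases *Has2* and *Has3*. They were taken by gene symbol, each symbol matched 1 row, and all 9 passed the filter on low counts.

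Counts came from the forebrain of mice at postnatal day 15, in 4 pools of *Lhx6*+/- (control) and 3 pools of *Lhx6*-/- (mutant) animals, with 2 mice in each pool. Both genotypes carried the null allele Lhx6tm2Vpa on an F1(C57BL/6 X 129Sv) background, so that controls lacked 1 copy of *Lhx6*, the transcription factor of interneurons born in the medial ganglionic eminence (MGE), and no wild-type sample was compared. The control pools held 4 males and 4 females and the mutant pools 2 males and 4 females. No control pool mixed the sexes: replicates 1 and 2 held 2 males each and replicates 3 and 4 held 2 females each. Mutant replicates 1 and 3 held 1 male and 1 female each, and mutant replicate 2 held 2 females. RNA integrity numbers lay between 9 and 10. Sex and RNA integrity were given per pool, whereas the columns of the count table carry a genotype and a library number only. The columns were not tied to single pools, and sex-linked genes were not used to do so. Whether sex divides the libraries as their numbers do was not tested. The question was which net genes differed between the genotypes, given that the MGE lineage produces the Pv interneurons that nets surround.

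Library totals lay between 32556183 and 38068931 counts, and a gene at 0 may still have up to 3 counts, equal to 0.0788 to 0.0921 CPM (counts scaled to library size), by counting error alone. *Lhx6*, the targeted gene, went from 534 ± 58.5 normalized counts (SD, n = 4 pools) to 72.5 ± 3.55 (SD, n = 3 pools). Within genotypes, libraries 10 and 11 and libraries 12 and 13 were closely alike (chi-square per degree of freedom of 10.8 and 10.2). Controls 2 and 3 differed from each other (38.5), and the remaining pairs gave 45.8 to 72.6. Libraries were therefore split by number into 2, 3 and 5 and 10 to 13. These sets are called runs of library numbers, and no sequencing run is meant. Both runs contain both genotypes. Log2 ratios within each run, libraries 2, 3 and 5 first, are given for the net genes and the called matrix genes. Of the markers of forebrain cell types, *Slc17a7* and *Camk2a* of cortical excitatory neurons were abundant in every library, while the summed counts of 8 hindbrain and cerebellar markers lay between 29 and 79 in controls and between 41 and 62 in mutants. Of these 8, *Hoxa4* was at 0 in all 7 libraries, and *Pcp2* and, in control library 10, *En1* made up much of the control sums. *Slc6a5*, the glycine transporter of hindbrain and spinal cord neurons, was higher in every mutant library (27.8, 14.5 and 18.9 normalized counts) than in any control library (6.58, 6.03, 0.959 and 4.07), with an adjusted p of 0.0529 from edgeR and a call in 3 of the 9 alternatives that tested it. Its part in the changes of the net genes was not tested. In control library 3, genes with long transcripts were low: the median log2 difference from the other controls was -0.29 over 683 genes with at least 12 kb of exon and 0.17 over 3014 genes under 2 kb.

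In mutants, 3 of the 9 genes were significantly higher, *Acan*, *Vcan* and *Hapln1*, and 0 were lower (edgeR's quasi-likelihood test, adjusted p of 0.05 or less; DESeq2 and limma-voom also called 0 lower, and no lower gene had an unadjusted p of 0.05 or less). Over all 19684 tested genes, 2.97% were called higher and 1.87% lower. The mutant libraries all lay above all control libraries for 5 of the 9 genes (*Acan*, *Ncan*, *Vcan*, *Hapln1* and *Tnr*), against 10.7% of tested genes (19.7% did not overlap in either direction). The median log2 fold change, mutant over control, was 0.33 over the 9 genes and -0.013 over all tested genes. The 3 increases were of 1.98-, 1.48- and 1.81-fold for *Acan*, *Vcan* and *Hapln1*, and the 2 synthases were the members with a negative log2 fold change. In these bulk samples a change in the number of cells of a type and a change in RNA per cell cannot be told apart, for increases or decreases.

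The number of members called moved with the fit, as did the share of all genes called. *Acan*, *Vcan* and *Hapln1* were called by limma-voom (4.89% of all tested genes called), with RLE normalization (4.87%), without a filter on low counts (2.46%) and with 10 counts required in all 7 libraries (5.97%). *Ncan* joined them in DESeq2 (8.79% of all tested genes called), with a term for the run that a library number falls in (11.2%) and in libraries 10 to 13 alone (10.3%). The same 3 genes were called without control library 3 (5.0%), 10 (2.64%) or 11 (3.03%), while *Ncan* took the place of *Vcan* without control library 2 (3.49%). Without mutant library 12, *Acan* and *Hapln1* were called (1.99% of all tested genes), and without mutant library 5 (2.37%) or 13 (1.56%) *Hapln1* was called alone.

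**Figure D1:**
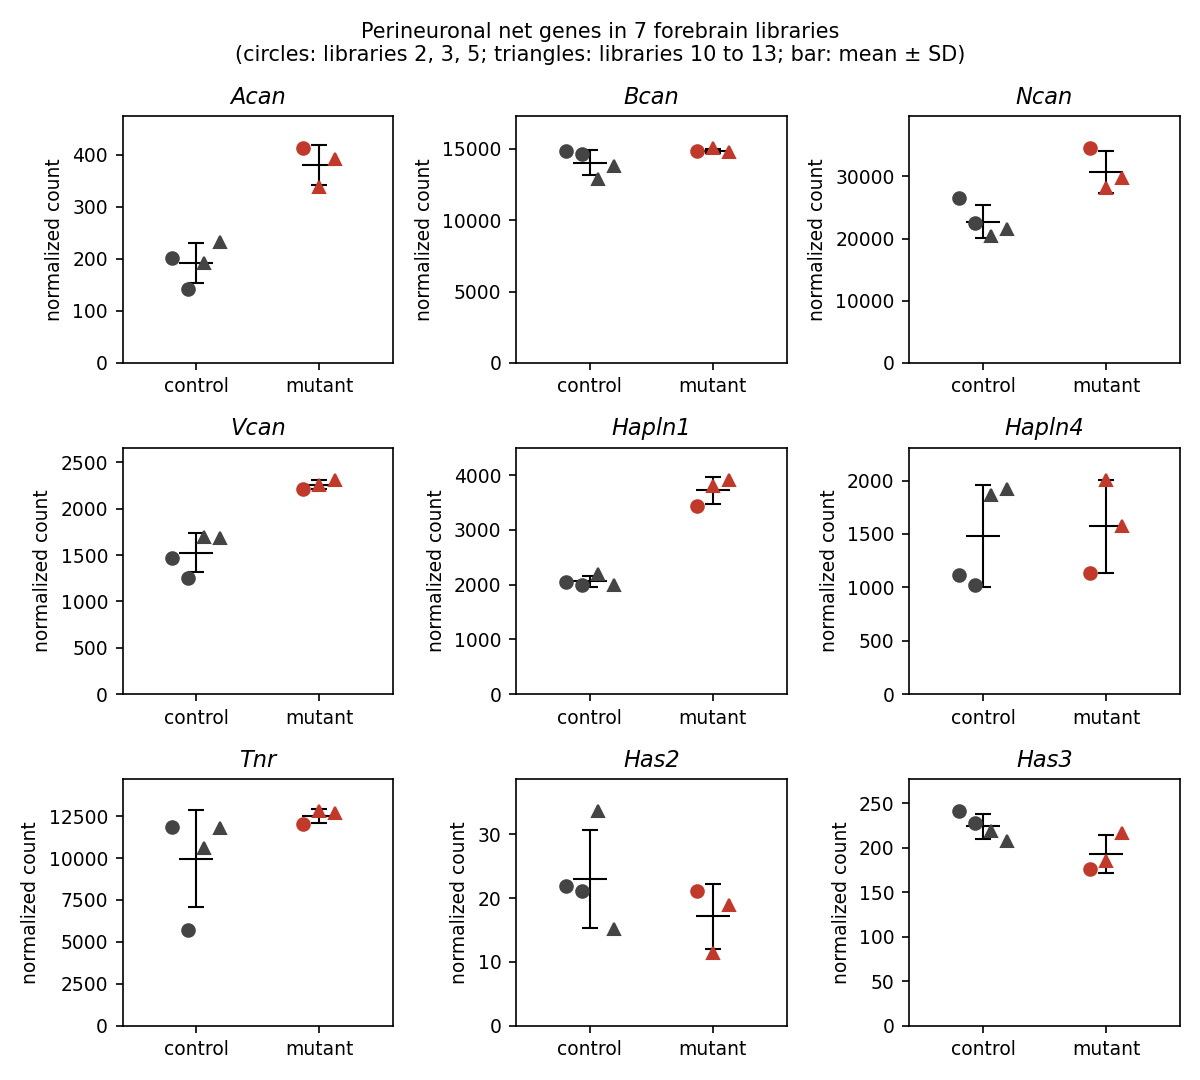
Normalized counts (vertical axes, each from 0) of the 9 perineuronal net genes in the 4 control (grey) and 3 mutant (red) forebrain libraries; circles are libraries 2, 3 and 5, triangles libraries 10 to 13, and bars the mean and SD. *Acan*, *Vcan* and *Hapln1* separate by genotype, *Hapln4* separates libraries 2, 3 and 5 from the others, and *Tnr* has a single low control at 5690.

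The stretches of 250 bases just before the RefSeq start sites of the 3 genes that rose are shown because these members were higher together. They read 5′ to 3′ on the gene's strand, from RefSeq on GRCm38, the build of the count table's annotation. Capitals mark matches on either strand to the motif of TBP, the factor that opens many core promoters (TATAAA), of NF-Y (CCAAT), of Sp1 (GGGCGG), of CREB (TGACGTCA), of the early response factor AP-1 (TGANTCA) or of EGR factors (GCGNGGGCG).
Acan promoter, chr7:79052976-79053225, plus strand: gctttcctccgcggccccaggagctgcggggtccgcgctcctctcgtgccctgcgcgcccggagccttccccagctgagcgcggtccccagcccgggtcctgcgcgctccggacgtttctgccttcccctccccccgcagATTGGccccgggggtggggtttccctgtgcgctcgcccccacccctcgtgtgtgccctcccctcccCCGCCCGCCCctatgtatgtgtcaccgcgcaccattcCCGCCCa
Vcan promoter, chr13:89742513-89742762, minus strand: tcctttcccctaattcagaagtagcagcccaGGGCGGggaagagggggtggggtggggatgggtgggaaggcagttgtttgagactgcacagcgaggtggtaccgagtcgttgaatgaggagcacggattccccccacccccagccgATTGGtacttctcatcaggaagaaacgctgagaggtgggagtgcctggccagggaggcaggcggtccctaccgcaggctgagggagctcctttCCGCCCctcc
Hapln1 promoter, chr13:89540386-89540635, plus strand: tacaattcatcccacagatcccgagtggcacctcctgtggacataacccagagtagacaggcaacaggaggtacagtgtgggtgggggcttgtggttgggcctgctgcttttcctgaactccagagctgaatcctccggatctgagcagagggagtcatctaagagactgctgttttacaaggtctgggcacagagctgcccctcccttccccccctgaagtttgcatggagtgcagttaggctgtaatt
The *Acan* stretch was the richest in G and C, at 74.4% with 26 CpG dinucleotides, against 62.4% and 10 for *Vcan*, 54.4% and 2 for *Hapln1*, and medians of 52.4% and 6 over 32851 promoters. *Acan* held 3 Sp1 motifs, the first 2 of which overlap, and an NF-Y motif 110 to 106 bases before the start. *Vcan* held 2 Sp1 motifs and an NF-Y motif at nearly the same distance, 103 to 99 bases before its start. *Hapln1* held none of the searched motifs. The Sp1 motif occurs in 32.7% of all promoters of this length and the NF-Y motif in 33.8%, and the other motifs, in 12.4% (TBP), 1.55% (CREB), 6.75% (AP-1) and 4.7% (EGR), were in none of these 3 stretches. The table used holds promoters of 6 of the 9 genes. Of the members in it that were not called, *Bcan* also held an Sp1 and an NF-Y motif. *Ncan* held an Sp1 and a TBP motif, and *Tnr* held none. The motifs thus did not set the called members apart.

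Among the lecticans, *Acan*, the proteoglycan whose staining defines most cortical nets, was measured in normalized counts, that is, counts scaled to a common library size. Controls 2, 3, 10 and 11 had 202, 142, 191 and 233, and mutants 5, 12 and 13 had 412, 338 and 391; values follow this order of libraries for every gene. The lowest mutant library lay well above the highest control library. The change from 192 ± 37.9 (SD, n = 4 pools) to 380 ± 37.9 (SD, n = 3 pools) was 0.99 on the log2 scale (SE, its standard error, 0.17; adjusted p = 0.0144, edgeR), with log2 ratios of 1.26 among libraries 2, 3 and 5 and 0.78 among libraries 10 to 13. The call was lost without mutant library 5 (adjusted p = 0.0521 from edgeR) and without mutant library 13 (0.0754), and over all 14 alternatives the adjusted p ran from 5.80e-06 to 0.0754. *Acan* lies on chromosome 7 of GRCm38, from 79053483 to 79115099.

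*Vcan*, a lectican of the looser juvenile matrix and of progenitor and connective tissue cells, had 1468, 1258, 1694 and 1683 normalized counts in the controls and 2210, 2252 and 2310 in the mutants. The 3 mutant libraries were closely alike and the controls were lower in libraries 2 and 3 than in 10 and 11. The mutant mean was higher by 0.56 on the log2 scale (SE 0.109; adjusted p = 0.0228, edgeR), with 0.70 among libraries 2, 3 and 5 and 0.43 among libraries 10 to 13. The *Vcan* call was lost in 4 of the 7 fits that left out 1 library, without control library 2 (adjusted p = 0.0540 from edgeR), mutant library 5 (0.0577), mutant library 12 (0.0850) and mutant library 13 (0.110), and over the alternatives the adjusted p ran from 0.000160 to 0.110.

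*Ncan*, the lectican most typical of the early postnatal brain, had 26527, 22501, 20443 and 21499 normalized counts in controls and 34511, 28072 and 29690 in mutants. The groups did not overlap, though control library 2 and mutant library 12 came close. The difference of 0.44 on the log2 scale (SE 0.115) did not pass the threshold (adjusted p = 0.0722 from edgeR; 95% interval 0.17 to 0.70 before adjustment), with 0.49 and 0.46 in the 2 runs of library numbers. *Ncan* was called by DESeq2 (adjusted p = 0.00696), with the library number run as a term (0.00576 from edgeR), in libraries 10 to 13 alone (0.00580) and without control library 2 (0.0402), and its adjusted p reached 0.206 without mutant library 5. *Bcan*, a lectican that astrocytes and oligodendrocyte lineage cells make, had 14824, 14609, 12918 and 13797 counts in controls and 14840, 15028 and 14751 in mutants. These groups overlapped, and the 95% interval of the *Bcan* log2 fold change ran from -0.10 to 0.26 (estimate 0.08, adjusted p = 0.667 from edgeR). The runs of library numbers gave 0.01 and 0.16 for *Bcan*.

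Since the 4 lecticans all bind hyaluronan, their make-up was also computed in each library, as counts per kilobase of merged exon over the sum of the 4 genes. *Acan* made up 0.362%, 0.278%, 0.415% and 0.477% of lectican transcripts in the controls and 0.637%, 0.581% and 0.657% in the mutants. It was thus a small part of the family in both genotypes, and larger in every mutant library than in any control library. The means were 0.383% ± 0.0845 (SD, n = 4 pools) and 0.625% ± 0.0395 (SD, n = 3 pools; exact permutation test, two-sided, p = 0.0571, the smallest p that 4 against 3 libraries allow). *Ncan* and *Vcan* together made up 48.3% ± 1.66 in controls and 54.3% ± 2.62 in mutants, with every mutant library above every control library (exact permutation test, two-sided, p = 0.0571). *Bcan* accordingly took 51.3% ± 1.66 in controls and 45.0% ± 2.65 in mutants. Of 4 such shares compared, the lowest p after Benjamini-Hochberg adjustment was 0.114 (exact permutation test), and this number of libraries allows none below the threshold.

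**Figure D2:**
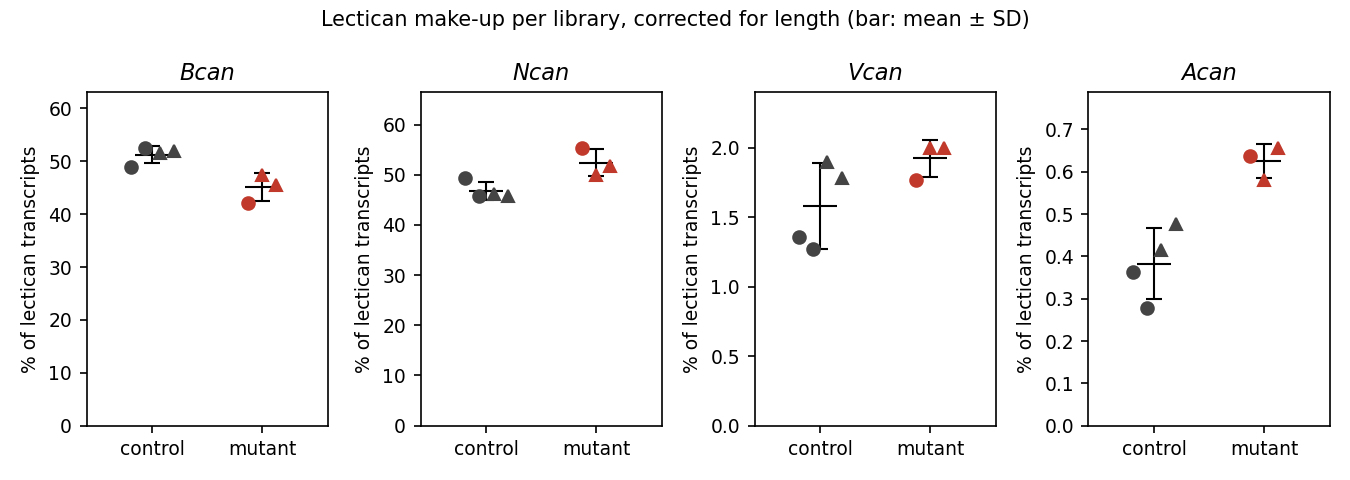
Share of each lectican gene among the transcripts of the 4 lecticans (percent of counts per kilobase of merged exon; each axis from 0) in control (grey) and mutant (red) libraries, with bars for the mean and SD; circles are libraries 2, 3 and 5 and triangles libraries 10 to 13. The mean *Bcan* share is 51.3% in controls and 45.0% in mutants, while *Ncan* and *Acan* take larger shares in all 3 mutant libraries than in any control, and the *Vcan* groups overlap.

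Of the link proteins, *Hapln1*, whose product clamps lecticans to hyaluronan and whose loss attenuates nets, had the smallest p of the 9 genes. It had 2049, 1997, 2199 and 1991 normalized counts in controls and 3443, 3806 and 3914 in mutants. The 4 controls lay within a narrow band and the mutants were far above it. It rose by 0.85 on the log2 scale (SE 0.0765; adjusted p = 0.000734, edgeR), with 0.77 within libraries 2, 3 and 5 and 0.88 within libraries 10 to 13, and the call held under all 14 alternatives, with an adjusted p of at most 0.00711.

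*Hapln4*, the link protein best known from nets of the brainstem and cerebellum and also found on cortical Pv interneurons, had 1119, 1025, 1868 and 1923 counts among controls and 1138, 2006 and 1572 among mutants. The values followed the library numbers and not the genotype: controls 10 and 11 exceeded controls 2 and 3 by 0.82 on the log2 scale. The genotypes overlapped (log2 fold change 0.08, 95% interval -0.52 to 0.69, adjusted p = 0.919 from edgeR), and the log2 ratios within the runs were 0.09 and -0.08. *Hapln4* made up 49.5% ± 7.83 of the transcripts of both link protein genes per kilobase in controls and 36.9% ± 5.46 in mutants, with overlapping groups (exact permutation test, two-sided, p = 0.114). Within libraries 2, 3 and 5 the *Hapln4* share differed by -11.0 percentage points and within libraries 10 to 13 by -16.7 percentage points.

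*Tnr*, which oligodendrocyte lineage cells and some interneurons secrete, had 11822, 5690, 10572 and 11799 normalized counts in controls and 12040, 12790 and 12714 in mutants. The groups did not overlap, but the gap to the nearest control was small and control library 3 lay far below the rest. The difference was 0.33 on the log2 scale (SE 0.224; adjusted p = 0.520, edgeR), and it was 0.13 without control library 3 (adjusted p = 0.417). The runs gave 0.46, with control library 3 in it, and 0.19. *Tnr* has 12867 bases of merged exon, and its log2 level in control library 3 was 1.00 below the mean of the other controls, a value that 2.1% of 15890 genes reached or passed; the part of transcript length in it was not tested.

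The hyaluronan synthases, which extrude the sugar chain, differed by about an order of magnitude in normalized counts. Per kilobase of merged exon the gap was smaller, with control means of 35.1 for *Has3* and 5.42 for *Has2*. *Has2* had 21.9, 21.1, 33.6 and 15.2 normalized counts in controls and 21.1, 11.4 and 18.9 in mutants, so that the groups overlapped, and the 95% interval of its log2 fold change, -1.25 to 0.41, includes a 2-fold decrease, which was not detectable at this depth, and the runs gave -0.03 and -0.69. *Has3* had 241, 228, 219 and 208 counts in controls and 176, 185 and 217 in mutants, also overlapping through mutant library 13. The 95% interval of the *Has3* change ran from -0.50 to 0.07 on the log2 scale (estimate -0.22; adjusted p = 0.426, edgeR), with -0.41 and -0.09 in the 2 runs. Exons of the antisense gene *Has2os* cover 4.30% of the *Has2* exons, and those of *Chtf8* cover 5.52% of the *Has3* exons on the other strand; whether counting used the strand is not given in the sources used here, so that such reads cannot be told apart. Of the 36-base words of the transcripts, 5.0% are shared with another gene for *Has3*, 3.26% for *Tnr*, 2.81% for *Has2* and less than 1% for the others.

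Per kilobase of merged exon, the 9 genes spanned a wide range of levels. In controls, *Bcan* had 3454 ± 213 normalized counts per kilobase (SD, n = 4 pools) and *Ncan* 3161 ± 370, and these neighbours overlapped. *Tnr* followed at 775 ± 226, and *Hapln4* (415 ± 134) and *Hapln1* (407 ± 19.2) overlapped each other, as did *Tnr* and *Hapln4* through control library 3. *Vcan* (106 ± 14.3), *Has3* (35.1 ± 2.19), *Acan* (25.7 ± 5.07) and *Has2* (5.42 ± 1.81) came next, with no overlap between neighbours. In mutants, *Ncan* (4275 ± 466, SD, n = 3 pools) stood above *Bcan* (3660 ± 34.7), *Hapln1* (736 ± 48.9) above *Hapln4* (440 ± 121) and *Acan* (50.9 ± 5.07) above *Has3* (30.2 ± 3.34), and no neighbours in the order overlapped. By this level *Acan* was at the 26.0th percentile of tested genes in control forebrain and *Bcan* at the 97.7th.

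Each lectican gene lies beside a link protein gene, an arrangement that the choice of genes did not use. On chromosome 13, *Hapln1* (89540636 to 89611832, plus strand) and *Vcan* (89655312 to 89742509, minus strand) face each other end to end, 43.5 kb apart, and both rose. On chromosome 8, *Hapln4* (70083529 to 70090862) and *Ncan* (70093085 to 70120873) also face each other, 2.2 kb apart, with log2 fold changes of 0.08 and 0.44. On chromosome 7, *Acan* ends 2 bases before the end of *Hapln3*, a link gene of wider tissue distribution. *Hapln3* had 116, 96.4, 110 and 99.6 normalized counts in controls and 131, 102 and 128 in mutants, overlapping, with a log2 fold change of 0.19 (95% interval -0.16 to 0.54) against 0.99 for *Acan*. On chromosome 3, *Bcan* and *Hapln2*, the link protein of nodes of Ranvier, lie on the same strand 21.5 kb apart, with log2 fold changes of 0.08 and 0.34 (95% interval of *Hapln2* -0.32 to 1.01), neither called. Thus both genes were called at 1 of 4 loci, the lectican alone at 1 and neither at 2. This tally moved with the libraries used. Without control library 2 or mutant library 5, 12 or 13, *Vcan* was not called and *Hapln1* alone was called at that locus. Without mutant library 5 or 13, *Acan* was not called. Differences between neighbours were not tested.

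**Figure D3:**
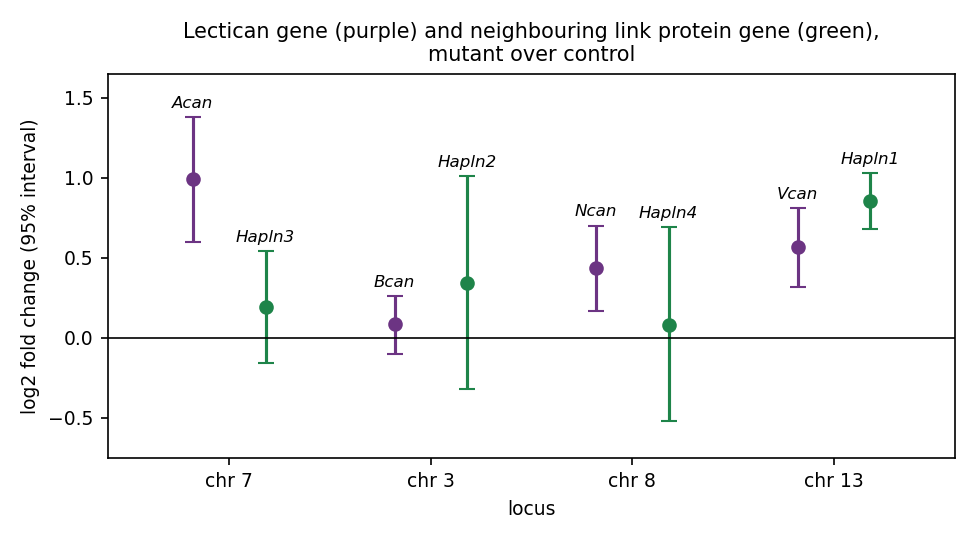
Log2 fold change, mutant over control, with its 95% interval (vertical axis) of each lectican gene (purple) and the link protein gene next to it (green) at the 4 loci, from edgeR's fit on 4 control and 3 mutant libraries. Both intervals lie above 0 for *Vcan* and *Hapln1*, whereas *Hapln3* beside *Acan* and *Hapln4* beside *Ncan* have intervals that include 0.

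The genes whose pattern over the 7 libraries was closest to the 3 that rose were found by the root mean square difference of log2 CPM, each relative to its own mean, among 15889 genes. For *Acan* these were *Pcdh15* (0.0774), *Maml3* (0.0965) and *Pde1c* (0.103), with log2 fold changes of 0.95, 1.04 and 1.11. For *Vcan* they were *Ankrd50* (0.0476), *Fndc3b* (0.0493) and *Zyx* (0.0579), and for *Hapln1* they were *Mxra8* (0.0519), *Sema3c* (0.0591) and *Bmp2* (0.0725). No member of the net was among the 3 closest genes of another. With only 3 of 15889 genes kept for each, that does not show whether members moved together.

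A list of 62 further genes of the matrix was read from the same fit: other link proteins and proteoglycans, enzymes that make and sulfate chondroitin chains, proteases and their inhibitors, enzymes and receptors of hyaluronan, and receptors and ligands of the net. Of these, 60 were tested, and 5 were called higher and 2 lower (11.7%, against 4.85% of all tested genes in either direction), with a median log2 fold change of 0.082. The genes called lay among the proteases, inhibitors, receptors and net-bound ligands, with 1 exception in chain synthesis. The other proteoglycans *Ptprz1*, *Cspg4* and *Cspg5* had log2 fold changes of 0.25, 0.42 and -0.17. None of them, of the other link proteins, tenascins and synthase, or of 9 tested sulfotransferases and epimerases was called in the main edgeR fit. Before adjustment, *Cspg4*, *Tnc*, *Chst11*, *Chst12*, *Ust* and *Dse* had a p of 0.05 or less in that fit. *Tnc*, *Chst11* and *Chst12* were each called in 2 of the 14 alternatives and *Cspg4* in 1. In the groups with a call, the uncalled *Adamts15*, *Plat*, *Timp2*, *Timp4*, *Cemip*, *Cntn1* and *Sema3a* also had a p of 0.05 or less before adjustment.

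Of the proteases that cleave lecticans, *Adamts1* and *Adamts4* were called and moved in opposite directions. *Adamts15*, not called, was lower in every mutant library than in any control library (log2 fold change -0.60, adjusted p = 0.0749 from edgeR). The groups overlapped for *Adamts5*, *Adamts8* and *Adamts9*. *Adamts1* had 421, 351, 430 and 385 normalized counts in controls and 874, 1772 and 974 in mutants. All mutants were above all controls, with mutant library 12 far above the other two. *Adamts1* rose by 1.6 on the log2 scale (SE 0.23; adjusted p = 0.00704, edgeR), with 1.18 and 1.75 in the 2 runs, and the call held under all alternatives, with an adjusted p of at most 0.0228. *Adamts4*, which mature oligodendrocytes express, had 1894, 1849, 1782 and 1898 counts in controls and 1418, 1150 and 1177 in mutants, a change of -0.57 on the log2 scale (SE 0.0902; adjusted p = 0.0102, edgeR), with -0.40 and -0.66 in the 2 runs. Its call was lost without mutant library 12 (adjusted p = 0.0549 from edgeR) and without mutant library 13 (0.0722), the highest of the alternatives, of which the lowest was 1.64e-06. Beside it, 3 of 6 oligodendrocyte markers were lower, among them *Mbp* (myelin basic protein, -0.53), and the summed level of the 6 lay between 234093 and 301285 counts in controls and between 167771 and 206215 in mutants. With mutant library 5 left out 1 of these markers was called lower, with mutant library 13 left out 0 were, and with any other library left out 3 were; the part of this cell type in the *Adamts4* change was not tested. *Timp1*, an inhibitor of metalloproteases, had 27.4, 25.1, 20.1 and 13.2 counts in controls and 144, 44.5 and 100 in mutants, a rise of 2.16 on the log2 scale (SE 0.404; adjusted p = 0.0200, edgeR), with 2.45 and 2.12 in the 2 runs. Its call was lost without control library 10 (adjusted p = 0.0609 from edgeR), control library 11 (0.0507), mutant library 5 (0.0682) or mutant library 13 (0.0844), and the range over the alternatives was 3.69e-05 to 0.0844.

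Of the hyaluronan receptors, *Cd44*, found on astrocytes among other cells, rose from 266, 265, 230 and 167 normalized counts in controls to 571, 534 and 659 in mutants (1.34 on the log2 scale, SE 0.173; adjusted p = 0.00449, edgeR). *Nptx2*, a secreted pentraxin that gathers at nets and excitatory synapses on Pv interneurons, rose from between 2296 and 2969 counts to between 10190 and 14216 (log2 fold change 2.28, adjusted p = 0.000174 from edgeR). *Crtac1*, which encodes a secreted antagonist of the Nogo receptor, rose from between 2220 and 2714 counts to between 5069 and 5525 (log2 fold change 1.11, adjusted p = 0.000629 from edgeR). For these 3 genes the groups were far apart and the calls held under all 14 alternatives. The runs gave 1.10 and 1.59 for *Cd44*, 2.58 and 2.08 for *Nptx2* and 0.99 and 1.22 for *Crtac1*. *Csgalnact1*, which starts the chondroitin chain, was lower at 491, 524 and 505 counts in mutants against 734, 709, 628 and 653 in controls (log2 fold change -0.43, adjusted p = 0.0433 from edgeR). That call of *Csgalnact1* was lost whichever library was left out (adjusted p from 0.0635 to 0.178), the runs gave -0.55 and -0.32, and over the alternatives the adjusted p ran from 0.00250 to 0.178.

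**Figure D4:**
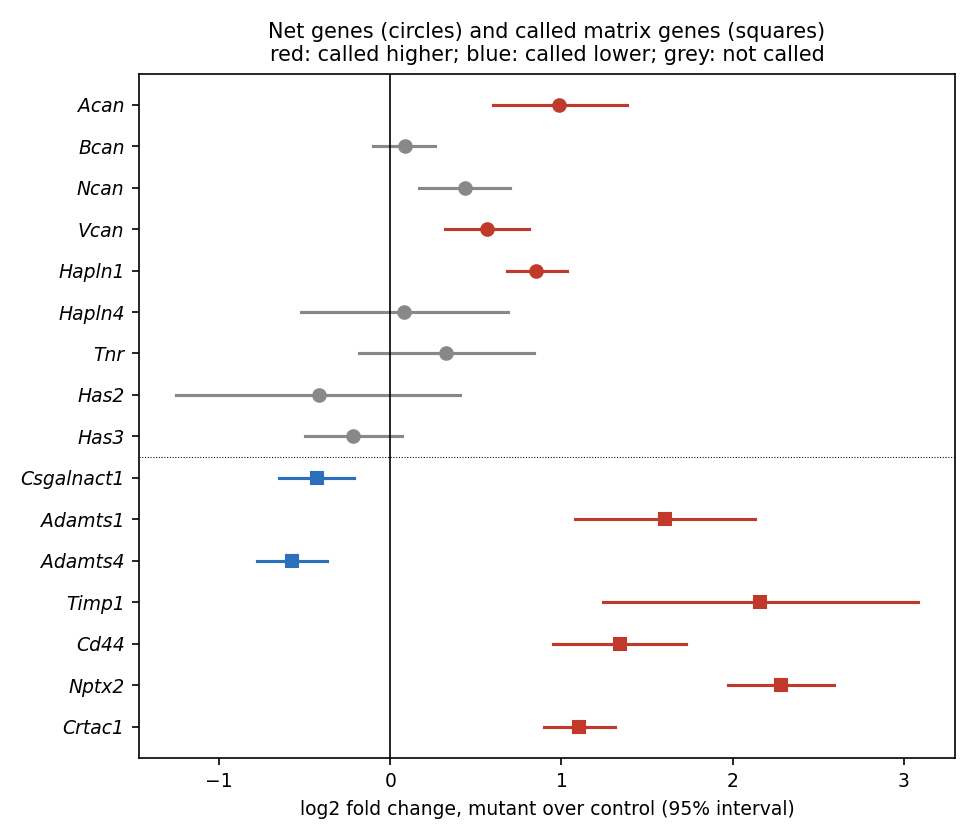
Log2 fold change, mutant over control (horizontal axis), with its 95% interval for the 9 perineuronal net genes (circles, above the dotted line) and the 7 called genes of the wider matrix list (squares); red is called higher, blue called lower and grey not called. *Acan* (0.99) and *Hapln1* (0.85) have the largest changes among the net genes, and *Nptx2* (2.28) and *Timp1* (2.16) among the others.

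Markers of the cells that nets surround went the other way. Of 8 markers of fast-spiking interneurons, 6 were lower, among them *Pvalb*, from 931 ± 147 (SD, n = 4 pools) to 113 ± 31.2 (SD, n = 3 pools; log2 fold change -3.05, adjusted p = 0.000389 from edgeR), and the channel gene *Kcnc2* (-1.32), whereas *Tac1* was higher (0.83) and *Cox6a2*, not called, lay above all controls in every mutant library (0.40, adjusted p = 0.152 from edgeR). With 1 library left out, between 2 (without mutant library 13) and 5 (without control library 3) of the 8 were called lower: 4 without control library 2, and 3 without control library 10, control library 11, mutant library 5 or mutant library 12. *Pvalb* and *Syt2* were called in all 7 of these fits, *Kcnc2* in 6, *Tac1* in 3, and *Kcnc1*, *Kcns3* and *Erbb4* in 1 each. The summed level of the 8 lay between 12814 and 16458 counts in controls and between 7921 and 9351 in mutants, while *Acan*, *Vcan* and *Hapln1* were higher. Of 8 astrocyte markers, 1 was higher (*Gfap*, log2 fold change 1.95), and their sum lay between 210927 and 305717 counts in controls and between 333971 and 390347 in mutants. Most of that sum was *Slc1a2* (197129 counts on average in controls, 267793 in mutants), which was not called (adjusted p = 0.200 from edgeR). *Gja1* and *Aqp4* also lay above all controls without a call, and *Aldh1l1*, *Slc1a3*, *Aldoc* and *Sox9*, with log2 fold changes of 0.08 to 0.23, overlapped between genotypes. Of 6 markers of oligodendrocyte progenitors and 4 of meningeal fibroblasts, both sources of *Vcan*, 0 were called, and their sums overlapped between genotypes (14417 to 18723 against 17209 to 18669, and 3436 to 4618 against 3933 to 5171). For both of these lists 0 calls stood beside, before adjustment, *Cspg4*, *C1ql1*, *Col1a1* and *Col1a2* with p-values of 0.05 or less in edgeR. Of 4 endothelial markers 0 were called as well. Their sums did not overlap, at 4454 to 5634 counts in controls and 5891 to 6792 in mutants. The part of these cell types in the changes of the net genes was not tested.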

How the data were processed

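Total RNA of whole forebrain was sequenced as 36 bp single-end reads. The authors trimmed reads with cutadapt 1.9.1, aligned them with Bowtie2 2.2.9 to the Ensembl release 84 transcriptome (GRCm38) and deposited RSEM 1.2.31 expected counts per gene, not normalized; per the submitters' processing notes these were the tools. A read matching several genes is shared among them, and between 32.9% and 36.0% of values per library were not whole. The deposited comparison table, with fold changes and p-values from the authors' DESeq2 run, served for gene symbols only, and the deposited annotation for positions and exon lengths. 0 columns of per-sample values were left unused.

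Expected counts were rounded. Genes reaching 10 counts in 3 or more libraries entered 1 fit of edgeR 4.0.16 in R 4.3.3 (TMM normalization, quasi-likelihood test, no covariate). Adjusted p-values are by Benjamini-Hochberg, called at 0.05. SE was derived from the fold change and its F statistic. Alternatives were DESeq2 1.42.0, limma-voom (limma 3.58.1), RLE normalization, other filters, the run of library numbers as a term, and each library left out; libraries 10 to 13 alone were added after seeing the data. Log2 CPM used a prior count of 2. Shared 36-base words were counted in GENCODE M21 transcripts (GRCm38). Tests were tried on simulated data. Between libraries of a genotype, chi-square per degree of freedom was at least 10.2, so each counted as 1 replicate; pools are separate animals, and p-values measure the spread between pools.

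Named were all 9 members, called genes of the matrix list, its link genes and some of its uncalled genes, markers, and the 3 genes of closest pattern to each called member. Members and lists were chosen with earlier results of these data known.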

Additional observations from a re-analysis of the deposited data

Results flagged for a closer look

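Among the 4 control libraries, the share of *Ncan* in lectican transcripts was 49.4% in control library 2, set apart from 45.8%, 46.1% and 45.8% in control libraries 3, 10 and 11 by more than Dixon's 95% limit; all 3 mutant libraries lay above it. *Nptx2* had 2969 normalized counts in control library 11, set apart in the same way from 2296 to 2383 in the other controls. These were the 2 values past the limit among 27 examined, and chance flags about 5% of groups.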

How the results depend on the processing

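The count of net genes called higher was 4 with DESeq2, with the library number run as a term and in libraries 10 to 13 alone, and 3 with limma-voom, RLE normalization and other filters; leaving out 1 library gave 1 to 3, with 1 without mutant library 5 or mutant library 13. None was called lower by any of these. Of the 62 matrix genes, 14 were called with DESeq2 (9 higher, 5 lower), 15 with the run term (11 and 4) and 14 in libraries 10 to 13 alone (10 and 4), and 1 was called lower without a filter; leaving out 1 library gave 4 to 6 calls, 4 to 5 higher and 0 to 2 lower. Over all genes, 1731, 2205 and 1922 were called in those 3 fits, against 954, and 302 to 971 with 1 library left out. *Hapln4* changed sign with the run term (-0.02), in libraries 10 to 13 alone (-0.07) and with 1 library left out (-0.13 to 0.28). The *Has3* share of both synthases (86.8% in controls, 88.2% in mutants, a difference of 1.46 points) ran from -0.386 to 3.2 points with 1 library left out and was -3.12 within libraries 2, 3 and 5. The cause of these shifts was not tested. The signs of the other shares held under other lengths, within runs and with 1 library left out. No paired analysis was possible because the columns carry no replicate number. At this depth *Has2*, at 11.4 to 33.6 normalized counts, limits what can be detected.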
